A study of Homo sapiens with 22 samples.

Results

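The kinesin genes of Ls174T cells were taken as every gene of the deposited RNA-sequencing tables whose symbol starts with KIF and a digit or with KIFC. The rule found 43 of 26475 genes, of which 42 lay among the 25244 genes of the HUWE1 experiment and 43 among the 25791 genes of the MIZ1 experiment. By function, 13 were classed as mitotic kinesins, 14 as transport kinesins and 13 as other kinesins. The remaining 3 symbols do not name motor genes (KIF25-AS1, KIF9-AS1 and the KIF4CP pseudogene, the last in the MIZ1 experiment alone), and KIF28P, counted with the other kinesins, is annotated as a transcribed pseudogene. KIF2B, KIF1A and KIF19 are kinesins with no entry in the tables.

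Ls174T is a human colon carcinoma line, and BI8622 is a small-molecule inhibitor of the ubiquitin ligase HUWE1. In the HUWE1 experiment, cells carried pLKO-shHUWE1, a lentiviral vector with a constitutive shRNA against HUWE1, or the empty control vector pLKO-empty, after puromycin selection, and each was given 20 µM BI8622 for 16 h or the solvent DMSO. In the MIZ1 experiment all cells carried pIND-shMiz1, a doxycycline-inducible shRNA against the transcription factor MIZ1 (gene ZBTB17), and were kept with 1 µg/ml doxycycline for 4 days or without it, again with BI8622 for 16 h or DMSO. The making of the MIZ1-depleted cells included a FACS sort, no uninfected cells were sequenced for RNA, and doxycycline was not given to cells without the shRNA vector. Each of the 8 groups had 2 libraries, and poly-A RNA was sequenced to ask which genes respond when HUWE1 is inhibited or depleted and whether MIZ1 is needed for the response.

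Kinesins are motor proteins that use ATP to walk along microtubules or to take them apart. Mitotic kinesins build and slide the spindle, move chromosomes and organise the midzone for cytokinesis, and their messages are known to accumulate in dividing cells toward G2 and mitosis. Transport kinesins carry vesicles, mitochondria, endosomes and ciliary components, and are used by dividing and resting cells alike.

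Promoters of mitotic and transport kinesins are shown for the short elements they hold. The genes were classed by function, and a link between these elements and the response to BI8622 was not tested. RefSeq promoters of GRCh38.p14 (250 bases before to 50 bases after the start) were matched for 34 of the 43 symbols. The CHR (cell cycle genes homology region, letters TTTGAA) and the CCAAT box (letters CCAAT) were searched on both strands; both are described in promoters of genes transcribed late in the cell cycle. In the following stretches of 120 bases before the start, 5′ to 3′, capitals mark these letters, which read TTCAAA and ATTGG where the element lies on the other strand.

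KIF11, chr10:92593010-92593129, plus strand: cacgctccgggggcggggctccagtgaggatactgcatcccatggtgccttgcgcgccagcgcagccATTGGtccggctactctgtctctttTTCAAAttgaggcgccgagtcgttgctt
KIF23, chr15:69414229-69414348, plus strand: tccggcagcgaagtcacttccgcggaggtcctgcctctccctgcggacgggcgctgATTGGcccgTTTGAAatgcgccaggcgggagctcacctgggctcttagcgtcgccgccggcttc
KIF18A, chr11:28108157-28108276, minus strand: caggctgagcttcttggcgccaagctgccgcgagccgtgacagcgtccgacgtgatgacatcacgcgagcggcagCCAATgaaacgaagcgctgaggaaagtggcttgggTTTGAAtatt
KIF20A, chr5:138178992-138179111, plus strand: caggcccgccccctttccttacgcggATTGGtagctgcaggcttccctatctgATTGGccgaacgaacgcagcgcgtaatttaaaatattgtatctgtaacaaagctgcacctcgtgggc
KIF5B, chr10:32056426-32056545, minus strand: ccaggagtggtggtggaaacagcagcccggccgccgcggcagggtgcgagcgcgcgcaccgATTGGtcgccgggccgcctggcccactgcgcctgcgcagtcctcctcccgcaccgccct
KIF3A, chr5:132737547-132737666, minus strand: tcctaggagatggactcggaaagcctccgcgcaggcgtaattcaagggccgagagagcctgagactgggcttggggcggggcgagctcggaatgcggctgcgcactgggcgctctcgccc

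KIF11, KIF23 and KIF18A each showed 1 CHR and 1 CCAAT box here, and KIF20A showed 2 CCAAT boxes and no TTTGAA. Of the transport kinesins, KIF5B showed 1 CCAAT box and KIF3A no match. In the full 300 bases, a CHR was found in 10 of 13 mitotic kinesin promoters (76.9%), in 1 of 10 transport kinesin promoters (10.0%, KIF5B, where it begins 140 bases before the start) and in 0 of 9 promoters of other kinesins, against 15.2% of all 35116 promoters. The CCAAT box was found in 11 of 13 mitotic, 3 of 10 transport and 3 of 9 other promoters, against 34.6% of all promoters. Both elements stood together in 9 of 13 mitotic promoters, against 5.90% of all promoters. KIF20A, KIF22 and KIF2C were the mitotic kinesins without TTTGAA on either strand. Variants of these letters were not searched, so a CHR of other letters would have been missed. The MYC E-box (letters CACGTG) was in 0 of 13 mitotic, 0 of 10 transport and 0 of 9 other kinesin promoters, against 7.26% of all promoters. With so few promoters, counts of 0 cannot be told apart from that share. The E-box was in 3 of 11 matched promoters of genes whose proteins work with mitotic kinesins, listed below. All these motif counts are matches of letters in a window and were not tested as sites.

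The tables gave, for each pair of groups, the authors' mean level of every gene over both groups in log2 CPM (reads per 1e6 counted reads), without values for single libraries. The level of each group was solved from these means, so it stands for 2 libraries together, and the spread between its libraries and the depth of each library could not be had. The p-values in the tables belong to the authors' own comparisons and were not used. Values are therefore given for 4 arms, that is 4 comparisons of BI8622 with DMSO that share no libraries, always in the order control vector, shHUWE1, shMIZ1 without doxycycline and shMIZ1 with doxycycline. Means ± SD are taken over the log2 differences of these 4 arms (n = 4 arms). The SD thus measures the spread between arms of different cells, and 4 paired arms could not give an exact two-sided p below 0.125, so no test was run. A gene was counted as past the fold when its group levels differed by 1.5-fold or more (0.58 on the log2 scale), and only genes averaging at least 1 CPM in an experiment were counted: 41 of the 42 kinesin symbols in the HUWE1 experiment and 42 of 43 in the MIZ1 experiment. KIF5A, a neuronal heavy chain, was the gene below that level, with 0.592 to 1.19 CPM.

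The targeted genes were checked against the labels. HUWE1 was at 218 CPM in shHUWE1 cells and 420 CPM in control vector cells in DMSO, and at 176 and 460 CPM in BI8622. ZBTB17 was at 11 CPM with doxycycline and 15.7 CPM without in DMSO, and at 11.4 and 22.6 CPM in BI8622. All 10 markers of colon epithelium had values. Of 8 markers of fibroblasts, leukocytes and endothelium, 4 had values, summing to 13.0 to 15.8 CPM per group. The colon epithelial markers summed to 2329, 3049, 2301 and 2578 CPM in the BI8622 groups, against 1737, 2425, 1729 and 1854 CPM in the DMSO groups, so the sum was higher in BI8622 in each arm. Most of the sum came from the keratins KRT8 (0.65 ± 0.12 log2) and KRT18 (0.64 ± 0.09). KRT20, CEACAM5, MUC2 and TFF3 were also higher in each arm, CDX2 (-0.47, -0.24, -1.03 and -1.03) and EPCAM (-0.04, -0.01, -0.28 and -0.16) were lower in each arm, and VIL1 and CDH1 were mixed. Their part in the kinesin values was not tested. In bulk RNA, fewer cells in mitosis and less kinesin RNA per cell cannot be told apart.

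Per kilobase of exon, which allows genes to be set side by side, the median mitotic kinesin was at 14.1 CPM per kb in DMSO-treated control vector cells, between 4.08 (KIF4B) and 33.4 CPM per kb (KIFC1). The transport kinesins had a median of 3.82 CPM per kb, with a far wider range: KIF5B, the ubiquitous heavy chain of conventional kinesin, stood at 80.1 and its neuronal relative KIF5A at 0.0487 CPM per kb. The other kinesins had a median of 2.12 CPM per kb, with KIF2A, a microtubule depolymerase of the spindle poles, highest at 13.2.

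The mitotic kinesins were at lower levels in BI8622 than in DMSO in all 4 arms. Of the 13 mitotic kinesins, 12 had a lower level in each arm, as did 28.4% of all 24111 genes compared, and KIF15 was lower in 3 arms. Their median log2 difference was -0.41, -0.42, -0.49 and -0.34 in the 4 arms, while the median of all genes lay between -0.03 and 0.04. Past the 1.5-fold limit, 5 of 13 were lower in the control vector arm (5.83% of all genes), 2 in the shHUWE1 arm (6.78%), 3 without doxycycline (11.5%) and 2 with doxycycline (10.9%); none was past it upward in these arms. Counts as small as 2 or 3 of 13 cannot be told apart from such shares without a test. No mitotic kinesin passed the fold in all 4 arms, a count close to the 2.54% of all genes that did. Most of the mitotic kinesin differences stayed inside the 1.5-fold limit in each arm. In the control vector arm, the central 95% of all genes at 16 to 64 CPM lay within -0.72 to 0.78. KIF18B (-0.82) and KIF20A (-0.73) lay below that range, and the other mitotic kinesins inside it. The ranges were -0.75 to 0.65 in the shHUWE1 arm, -1.08 to 1.13 without doxycycline and -1.02 to 1.06 with doxycycline. The lowest mitotic kinesins of these arms, at -0.71, -0.87 and -0.83, lay inside them. For 7 of the 13, all 4 BI8622 groups lay under all 4 DMSO groups, against 16.2% of all genes. That last count sets levels from 2 tables side by side that were normalized separately.

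**Figure D1:**
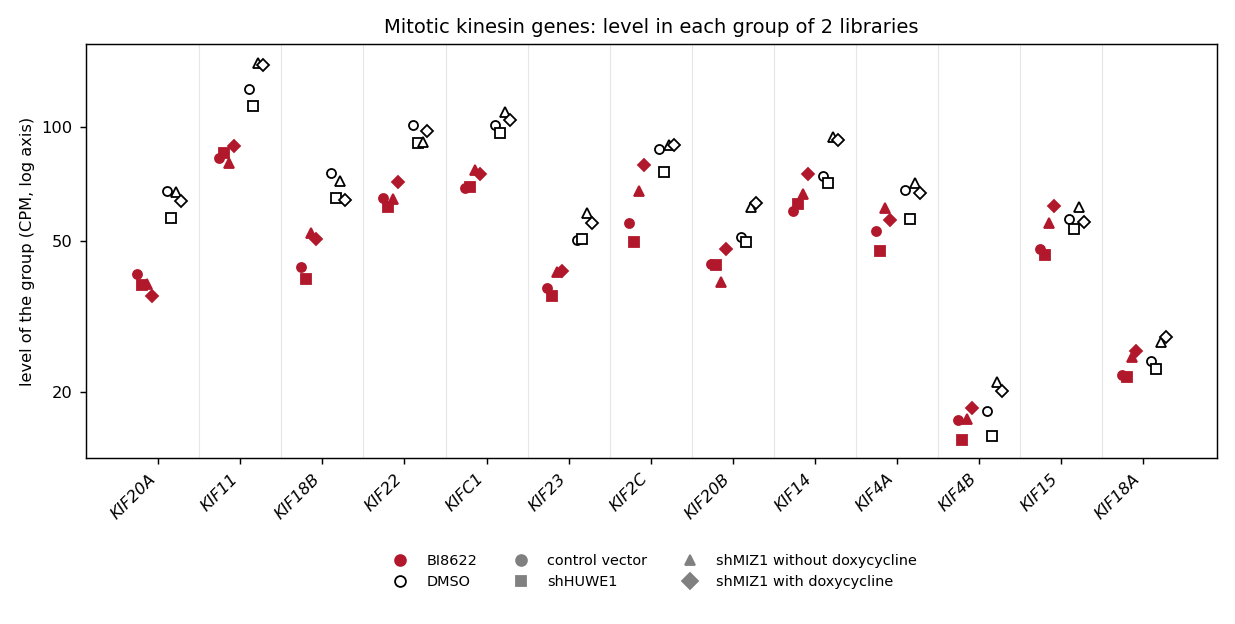
Level of each mitotic kinesin (CPM, log axis) in the 8 groups, each point standing for the mean of 2 libraries; filled red symbols are BI8622 and open symbols DMSO, and shapes mark the arm. KIF20A, KIF11, KIF18B, KIF22, KIFC1, KIF23 and KIF20B have all BI8622 groups under all DMSO groups. The groups of the other 6, KIF2C, KIF14, KIF4A, KIF4B, KIF15 and KIF18A, overlap.

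The motor that pushes spindle poles apart is KIF11 (ENSG00000138160, GRCh37 chr10:94333862-94415152), also called Eg5. It had 82.6, 85.2, 80.4 and 88.8 CPM in the BI8622 groups, against 126, 114, 147 and 145 CPM in the DMSO groups. All BI8622 values were below all DMSO values, and the log2 difference was -0.65 ± 0.19. The BI8622 groups of KIF11 were within 80.4 to 88.8 CPM, while the DMSO groups were spread more widely and were higher in the MIZ1 experiment. KIF15, which shares with KIF11 the work of holding spindle poles apart, had 47.7, 46.0, 55.8 and 61.9 CPM in BI8622 and 57.0, 53.8, 61.6 and 56.1 CPM in DMSO. It overlapped, with differences of -0.26, -0.23, -0.14 and 0.14, so the arm with doxycycline went the other way. KIFC1, a minus-end motor that focuses and clusters poles, had 69.2, 69.4, 77.1 and 75.2 CPM in BI8622, against 101, 96.5, 109.5 and 104 CPM in DMSO. Its difference of -0.50 ± 0.04 was among the most even over the arms, with no overlap.

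The motors of the midzone and of cytokinesis were lower together. KIF20A (ENSG00000112984, GRCh37 chr5:137514408-137523412) brings the chromosomal passenger complex to the central spindle. It had 40.9, 38.4, 38.6 and 35.8 CPM in BI8622 groups, against 67.9, 57.4, 67.5 and 63.8 CPM in DMSO groups. The groups were far apart, and its log2 difference of -0.74 ± 0.11 was the lowest mean of the mitotic kinesins. KIF23 (ENSG00000137807, GRCh37 chr15:69706585-69740766) forms centralspindlin with RACGAP1. Its levels were 37.7, 35.8, 41.4 and 41.8 CPM in BI8622, against 50.3, 50.8, 59.1 and 55.9 CPM in DMSO. These groups did not overlap either, the difference was -0.46 ± 0.05, and it stayed inside the 1.5-fold limit in every arm. KIF20B, a midzone motor that acts in abscission, differed by -0.37 ± 0.21, more without doxycycline (-0.66) than in control vector cells (-0.23). KIF14, which works with citron kinase in cytokinesis, had 60.0 to 75.0 CPM in BI8622 and 71.1 to 93.7 CPM in DMSO and differed by -0.32 ± 0.13.

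Chromosome-arm motors and depolymerases followed the same direction. KIF22, a chromokinesin that pushes chromosome arms outward, had 65.0, 61.5, 64.7 and 71.4 CPM in BI8622, against 101, 90.7, 91.0 and 97.4 CPM in DMSO, without overlap and with a difference of -0.53 ± 0.08. KIF4A, the chromokinesin that sets midzone length with PRC1, had 47.0 to 61.0 CPM in BI8622 and 57.1 to 71.3 CPM in DMSO, and differed by -0.27 ± 0.06. KIF4B, at -0.15 ± 0.13, is a near-identical intronless copy of KIF4A, and reads of the 2 genes and of KIF4CP could have been assigned to each other.

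The depolymerase KIF2C (ENSG00000142945, GRCh37 chr1:45205490-45233439), also called MCAK, corrects faulty kinetochore attachments. It had 56.0, 49.6, 67.8 and 79.1 CPM in BI8622 groups, against 87.3, 76.2, 89.3 and 89.6 CPM in DMSO groups. Here the BI8622 group with doxycycline lay above the DMSO group of shHUWE1 cells, and the difference was larger in the HUWE1 experiment (-0.64 and -0.62) than in the MIZ1 experiment (-0.40 and -0.18). KIF18B, which works with KIF2C on astral microtubules, had 42.9, 39.7, 52.6 and 50.6 CPM in BI8622, against 75.8, 64.9, 72.0 and 64.2 CPM in DMSO. Its differences of -0.82, -0.71, -0.45 and -0.34 had the same split between the experiments, which was not tested, and its groups did not overlap. KIF18A, which damps chromosome oscillations at the metaphase plate, had 22.2, 22, 24.8 and 25.7 CPM in BI8622 and 24.2, 23.1, 27.2 and 28.1 CPM in DMSO. Its difference was small, -0.11 ± 0.03. A link of its promoter elements to this difference was not tested.

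Among the transport kinesins the response was mixed, and 10 of 13 had overlapping BI8622 and DMSO groups, close to the 68.1% of all genes that overlapped. Their median log2 differences were 0.13, 0.06, 0.17 and 0.05 in the 4 arms. Higher in each arm were 5 of 13 (28.7% of all genes), and lower in each arm was 1, KIF1C. Past the fold upward were 2 of 13 in the control vector arm (10.4% of all genes), 0 in the shHUWE1 arm (6.54%), 1 without doxycycline (15.2%) and 1 with doxycycline (12.7%), counts close to those shares. The median of the mitotic kinesins minus that of the transport kinesins was -0.54, -0.48, -0.66 and -0.40 in the 4 arms, on average -0.52 ± 0.11.

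**Figure D2:**
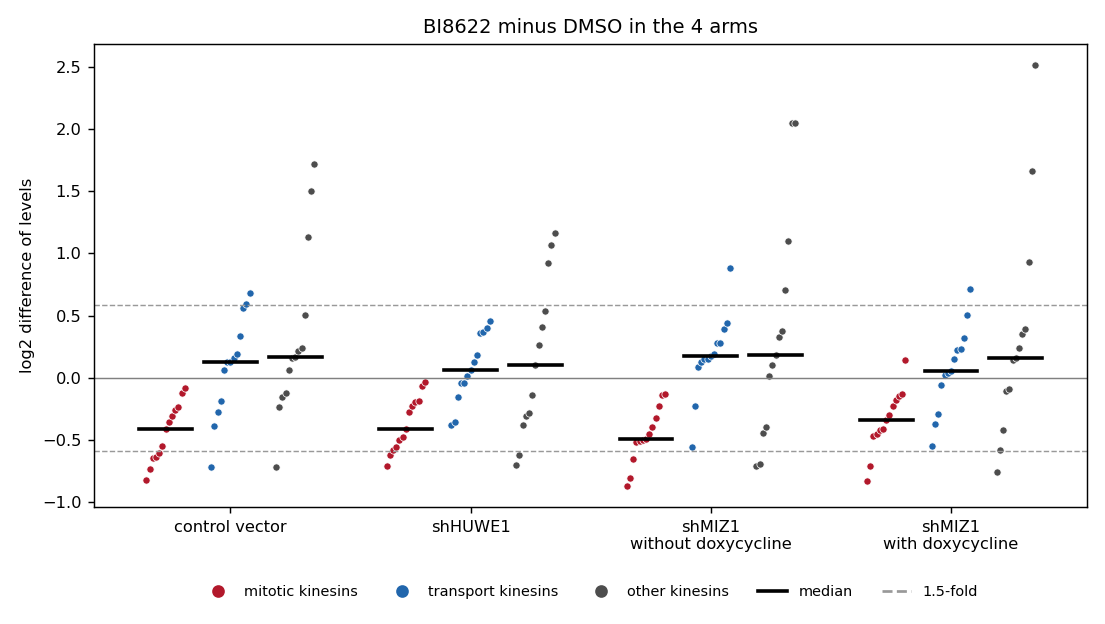
Log2 difference of BI8622 and DMSO levels for each kinesin gene of at least 1 CPM (points) in the 4 arms, with the median of each class (bars) and the 1.5-fold limits (dashed). The medians of the mitotic kinesins lie at -0.41, -0.42, -0.49 and -0.34, under those of the transport kinesins at 0.13, 0.06, 0.17 and 0.05.

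KIF13B, a motor of the kinesin-3 family that carries membrane cargo, was the transport kinesin with the highest mean difference. It had 55.4, 61.9, 65.8 and 67.7 CPM in BI8622, against 34.5, 46.8, 35.7 and 41.2 CPM in DMSO. The groups did not overlap and the log2 difference was 0.67 ± 0.20, smallest in shHUWE1 cells (0.40), whose DMSO level was already the highest of the DMSO groups. KIF5B (ENSG00000170759, GRCh37 chr10:32297943-32345353), with the highest level per kilobase of all kinesins, had 594, 599, 539 and 586 CPM in BI8622 and 470.0, 467, 493 and 502 CPM in DMSO. It was higher without overlap, by 0.26 ± 0.11.

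KIF1C, a vesicle motor, was the transport kinesin with lower levels in every arm. Its levels were 164, 147, 134 and 133 CPM in BI8622, against 214, 192, 198 and 195 CPM in DMSO, a difference of -0.47 ± 0.10 without overlap. Its relatives KIF1B (0.11 ± 0.12), KIF13A (0.07 ± 0.01) and KIF16B (0.09 ± 0.14), the last a motor of early endosomes, had small differences and overlapping groups.

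The kinesin-2 motors run intraflagellar transport in cilia. KIF3A (ENSG00000131437, GRCh37 chr5:132028320-132073330) had 37.5, 33.9, 44.4 and 43.4 CPM in BI8622 and 24.9, 24.7, 32.7 and 34.7 CPM in DMSO. It was higher in each arm, by 0.45 ± 0.11, and the groups overlapped across the experiments because the MIZ1 experiment had higher levels throughout. Its partner KIF3B, at 90.8 to 114 CPM in BI8622 and 79.9 to 103 CPM in DMSO, differed by a steady 0.16 ± 0.02. KIF3C (0.16 ± 0.38) and KIF17 (0.00 ± 0.38) were at 1.13 to 3.31 CPM, where the arms disagreed in direction. The neuronal heavy chain KIF5C, at 1.71 to 3.11 CPM, differed by -0.31 ± 0.31. Of the minus-end transport motors, KIFC2 had a difference of 0.04 ± 0.14, and KIFC3, which carries cargo to the apical side of epithelial cells, had -0.19 and -0.04 in the HUWE1 experiment and 0.39 and 0.51 in the MIZ1 experiment.

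**Figure D3:**
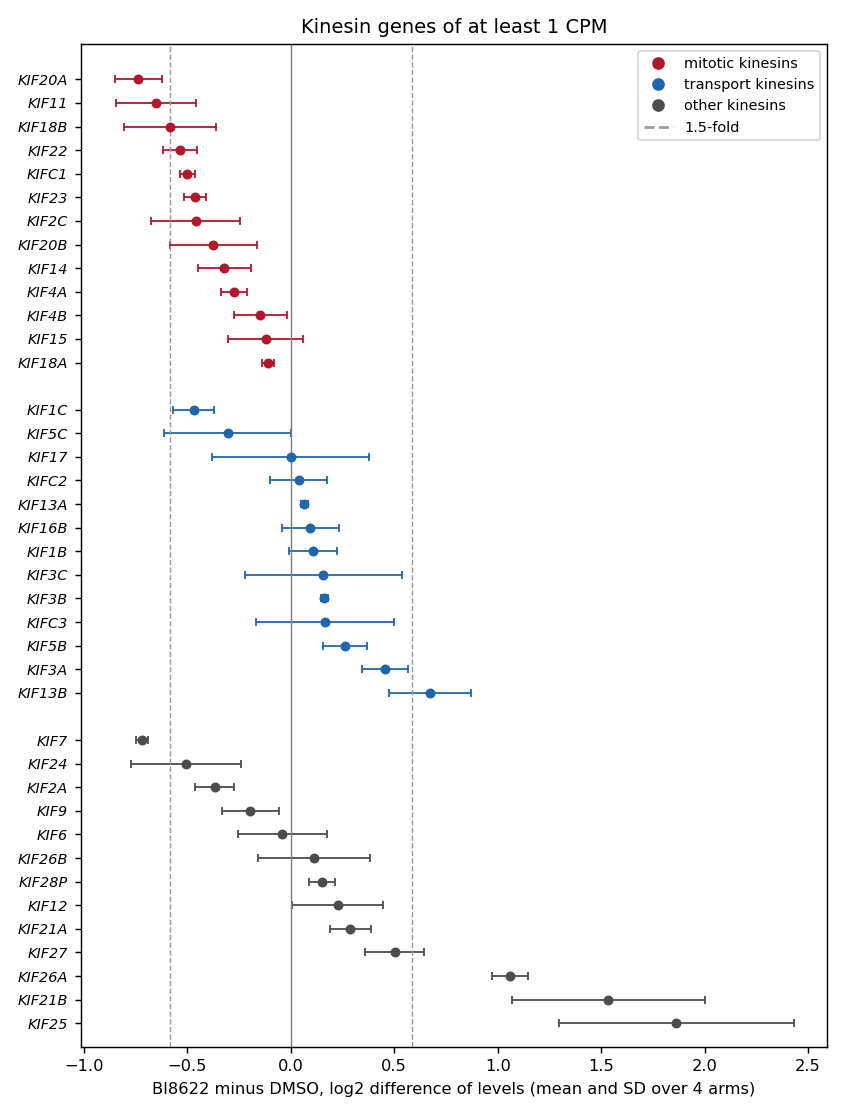
Mean log2 difference of BI8622 and DMSO levels over the 4 arms for each kinesin gene of at least 1 CPM in both experiments, with bars for the SD over arms and dashed lines at 1.5-fold. All 13 mitotic kinesins lie below 0, from -0.74 (KIF20A) to -0.11 (KIF18A), while the other kinesins span -0.72 (KIF7) to 1.86 (KIF25).

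The largest mean differences of the motor genes were among kinesins that are neither spindle motors nor classical carriers. KIF21B (ENSG00000116852, GRCh37 chr1:200938518-200992842), a kinesin-4 motor that regulates microtubule growth, had 44.8, 34.6, 75.9 and 68.8 CPM in BI8622, against 15.8, 18.2, 18.3 and 21.7 CPM in DMSO. It was higher past the fold in all 4 arms, as were 3.4% of all genes, by 1.53 ± 0.47. The BI8622 level was higher in the MIZ1 experiment than in the HUWE1 experiment, and lowest in shHUWE1 cells. Its paralog KIF21A was also higher without overlap, but by 0.29 ± 0.10.

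KIF26A (ENSG00000066735, GRCh37 chr14:104602791-104647231), an atypical kinesin that binds microtubules without motor activity, had 76.5, 97.4, 87.0 and 56.0 CPM in BI8622 and 34.9, 46.4, 40.7 and 29.3 CPM in DMSO. It was higher past the fold in all 4 arms and evenly so, by 1.06 ± 0.09. Its paralog KIF26B differed by 0.11 ± 0.27 with overlap.

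KIF25, a minus-end kinesin, had 6.98, 14.7, 7.24 and 11.3 CPM in BI8622, against 2.11, 6.56, 1.75 and 1.98 CPM in DMSO. It was the third kinesin higher past the fold in all arms, by 1.86 ± 0.57, at low levels. KIF25 shares 207 exon bases with KIF25-AS1 on the opposite strand. KIF25-AS1 was at 1.86, 5.09, 1.23 and 1.54 CPM in BI8622 and 0.377, 2.67, 0.604 and 0.858 CPM in DMSO. The sources used here do not say whether counting used strand, so reads of the shared bases cannot be told apart. The shared bases are 3.51% of the exon bases of KIF25 and 6.63% of those of KIF25-AS1. The levels include the small constant that edgeR adds (about 0.234 CPM a gene in the HUWE1 experiment and 0.240 CPM in the MIZ1 experiment), so such low levels are overstated and their differences understated.

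KIF7 (ENSG00000166813, GRCh37 chr15:90152020-90206317), a kinesin of Hedgehog signalling at the cilium tip, was the only kinesin lower past the fold in all 4 arms, against 2.54% of all genes. It had 30.4, 25.5, 34.3 and 28.2 CPM in BI8622, against 49.9, 41.5, 55.4 and 47.7 CPM in DMSO. Its log2 difference of -0.72 ± 0.03 hardly varied between arms. A share of 10.8% of its exon bases lies opposite TICRR, and reads there could belong to either gene. Its paralog KIF27 went the other way, at 20.8 to 29.3 CPM in BI8622 and 15.7 to 18.6 CPM in DMSO (0.50 ± 0.14).

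KIF24, a depolymerase of centrioles, was lower by less in the control vector arm (-0.12) than in the other arms (-0.62, -0.71 and -0.58). KIF2A, the relative of KIF2C that works at spindle poles, had 147, 137, 137 and 143 CPM in BI8622, against 173, 178, 187 and 191 CPM in DMSO, without overlap and with a difference of -0.37 ± 0.10. It shares 18.7% of its exon bases with DIMT1 on the opposite strand. KIF9 (-0.20 ± 0.14) and KIF6 (-0.04 ± 0.21), motors of motile cilia, KIF12 (0.23 ± 0.22) and KIF28P (0.15 ± 0.06) overlapped. Of the 13 other kinesins, 5 were higher in BI8622 without overlap (15.6% of all genes) and 3 lower without overlap (16.2%). Of the symbols that name no motor gene, KIF9-AS1 differed by 0.11 ± 0.06, and KIF4CP, in the MIZ1 experiment, by -0.46 without and -0.17 with doxycycline.

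**Figure D4:**
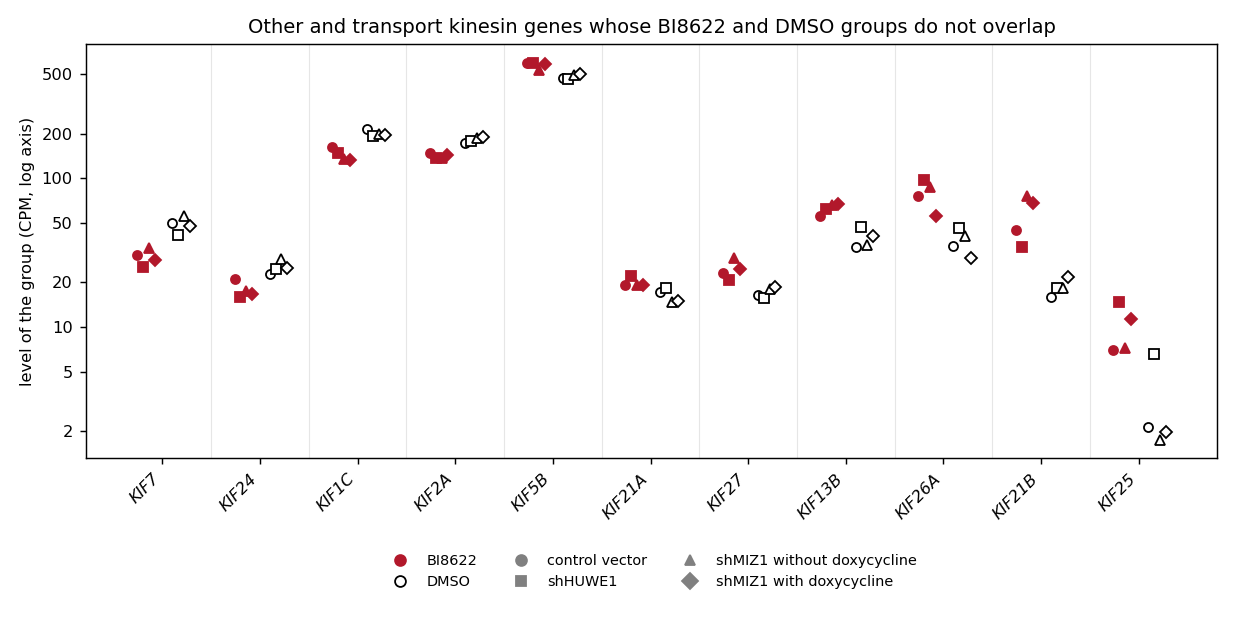
Level (CPM, log axis) of the transport and other kinesins whose 4 BI8622 groups (filled) and 4 DMSO groups (open) do not overlap, each point standing for the mean of 2 libraries. KIF7, KIF24, KIF1C and KIF2A lie lower in BI8622, and KIF5B, KIF21A, KIF27, KIF13B, KIF26A, KIF21B and KIF25 higher.

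Genes whose proteins work with mitotic kinesins mostly had the same direction. Of 15 listed partners, 12 were lower in each arm (28.4% of all genes), and the list's median difference was -0.44, -0.40, -0.43 and -0.38. The partners lowest in the arms were BIRC5 (-0.94, -1.03, -1.16 and -1.15) and AURKB (-0.99, -1.0, -0.67 and -0.63), both of the chromosomal passenger complex that KIF20A carries, and, without doxycycline, ANLN (-0.71), a scaffold of the cleavage furrow. CENPE, a kinetochore kinesin that the symbol rule leaves out, did not share this direction: it had 89.2, 105, 97.3 and 100.4 CPM in BI8622 and 86.5, 94.4, 106 and 109.7 CPM in DMSO, a difference of -0.01 ± 0.14. NUMA1, a spindle pole protein, was higher in each arm (0.13, 0.08, 0.27 and 0.16), and HMMR, which binds spindle microtubules, had -0.05 ± 0.14.

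The 12 listed partners of transport kinesins had medians of 0.08, 0.07, 0.30 and 0.23. KIFAP3, the adaptor of the KIF3A motor, was at 19.4, 16.4, 18.1 and 17.8 CPM in BI8622 and 12.1, 12.5, 11.8 and 13.3 CPM in DMSO, higher in each arm as KIF3A was (0.53 ± 0.14). Of the cargo adaptors of KIF5B, TRAK1 was higher by 0.42 ± 0.08 and MAPK8IP3 by 0.48 ± 0.31, while KLC3, a light chain, and MAPK8IP1, a scaffold, were among the lowest of the list in the control vector arm (-0.51 and -0.38) and without doxycycline (-0.46 and -0.50). RHOT2, a mitochondrial adaptor, was among the lowest in the shHUWE1 arm (-0.24), and KIAA1279 and KLC3 were lowest with doxycycline (-0.21 and -0.47).

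Depletion of HUWE1 without inhibitor gave small differences. For shHUWE1 against control vector cells in DMSO, the median of the 13 mitotic kinesins was -0.14, while that of all genes was 0.02. The mitotic kinesins ran from -0.26 (KIF4A) to 0.01 (KIF23). None was past the fold (1.68% of all genes), and these values lie within the range of -0.33 to 0.40 that held the central 95% of all genes at 16 to 64 CPM in this comparison. The transport kinesins had a median of -0.01, with KIF13B highest at 0.44 and none past the fold (3.99% of all genes higher). Of the mitotic partners, BIRC5 (-0.65) and PRC1 (-0.36) were lowest and CENPE (0.13) and NUMA1 (0.11) highest. Of the transport partners, KLC3 (-0.27) and KLC4 (-0.24) were lowest and TRAK1 (0.11) and KLC2 (0.08) highest.

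Among the other kinesins, 2 of 13 were past the fold upward (3.99% of all genes) and 1 downward (1.68%) in the same comparison. KIF25 was at 6.56 CPM in shHUWE1 cells and 2.11 CPM in control vector cells (1.63), with KIF25-AS1 at 2.67 and 0.377 CPM (2.82). KIF26B was at 21.3 CPM in shHUWE1 cells and 13.9 CPM in control vector cells (0.61), and KIF12 at 2.98 and 4.93 CPM (-0.73).

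With both depletion and inhibitor, shHUWE1 cells in BI8622 were set against control vector cells in DMSO, a comparison that shares its libraries with those above. The median of the mitotic kinesins was -0.53 and 4 of 13 were lower past the fold (8.73% of all genes), led by KIF18B at -0.93. The transport kinesins had a median of 0.02 with 1 past the fold upward (10.4% of all genes), KIF13B at 0.85. KIF7 was at -0.97 and KIF25 at 2.80. Of the partners, BIRC5 (-1.68) and AURKB (-1.09) were lowest and CENPE (0.27) and NUMA1 (0.19) highest on the mitotic list, and MAPK8IP1 (-0.56) and RHOT2 (-0.43) lowest and TRAK1 (0.45) and KIFAP3 (0.44) highest on the transport list. The BI8622 difference in shHUWE1 cells minus that in control vector cells had a median of 0.07 over the 13 mitotic kinesins. It ran from -0.09 (KIF23) to 0.19 (KIF11), and its distribution over all genes was not computed. These differences between arms are small beside the response itself and were not tested.

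**Figure D5:**
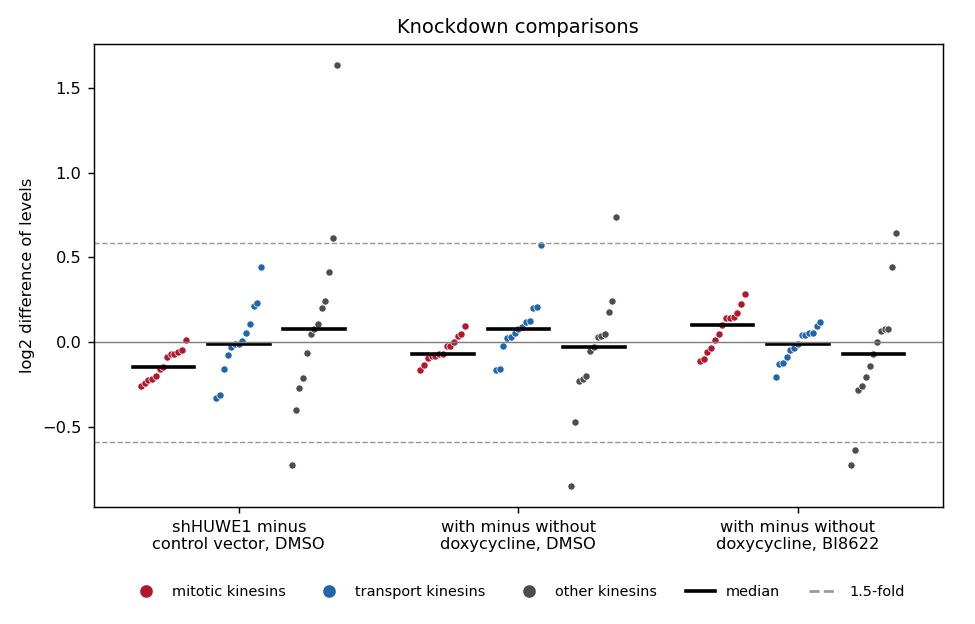
Log2 difference of levels for each kinesin gene of at least 1 CPM (points) in 3 knockdown comparisons, shHUWE1 minus control vector in DMSO and with minus without doxycycline in DMSO and in BI8622, with class medians (bars) and 1.5-fold limits (dashed). The mitotic kinesins lie within -0.26 to 0.28 in all 3 comparisons, with medians of -0.14, -0.07 and 0.10.

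Induction of the MIZ1 shRNA left the mitotic kinesins inside the fold. In DMSO their median was -0.07 with doxycycline against without, from -0.16 (KIF18B) to 0.10 (KIF22), and in BI8622 it was 0.10, from -0.11 (KIF20A) to 0.28 (KIF20B). None passed the fold downward in DMSO (1.43% of all genes) or in BI8622 (2.02%). The central 95% of all genes at 16 to 64 CPM lay within -0.26 to 0.26 in DMSO and -0.32 to 0.26 in BI8622, so KIF20B lay above it in BI8622. For genes over 64 CPM the range in BI8622 was -0.243 to 0.220, and KIF2C (0.224) lay just above it. The BI8622 difference with doxycycline minus that without had a median of 0.11 over the 13 mitotic kinesins. It was highest for KIF15 (0.28), whose BI8622 level was 61.9 CPM with doxycycline and 55.8 CPM without, and lowest for KIF20A (-0.03). Whether this differs from 0 was not tested.

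The transport kinesins had medians of 0.08 in DMSO and -0.01 in BI8622 between the doxycycline states, with none past the fold upward (2.23% and 1.66% of all genes). KIF17 came closest, at 2.25 CPM with doxycycline and 1.52 CPM without in DMSO (0.57). Of the other kinesins, KIF12 was lower in both media, at 2.49 CPM with and 4.49 CPM without doxycycline in DMSO (-0.85) and at 2.75 and 4.54 CPM in BI8622 (-0.72). KIF25 passed the fold upward in BI8622, at 11.3 CPM with and 7.24 CPM without doxycycline (0.65). KIF26A was at 29.3 CPM with and 40.7 CPM without doxycycline in DMSO (-0.47), and at 56.0 and 87.0 CPM in BI8622 (-0.64). KIF6 was higher in both, by 0.74 and 0.44, at 2.44 to 5.29 CPM among the DMSO groups of both experiments.

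The partners of mitotic kinesins differed little between the doxycycline states. In DMSO, CIT (-0.17) and BIRC5 (-0.12) were lowest and AURKB (0.08) and TPX2 (0.06) highest. In BI8622, BIRC5 (-0.12) and CIT (-0.09) were lowest and ANLN (0.19) and HMMR (0.17) highest. Of the 12 partners of transport kinesins, 1 was past the fold downward in DMSO (1.43% of all genes), MAPK8IP1, at 0.902 CPM with doxycycline and 1.47 CPM without (-0.71). KLC3 (-0.57) was the next lowest in DMSO, and KIFAP3 (0.17) and KLC1 (0.09) were highest. In BI8622, KLC3 (-0.57) and KLC2 (-0.17) were lowest and MAPK8IP1 (0.12) and KIAA1279 (0.09) highest.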

How the data were processed

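RNA was measured in 16 libraries of Ls174T cells, 2 in each of 8 groups, in 2 experiments. Per the authors, Bowtie 0.12.8 was run with hg19 as the reference, and edgeR stands among the tools of the submitters' processing notes. The deposited tables hold, for each pair of groups, the authors' log2 fold change, mean log2 CPM over both groups, p-value and adjusted p-value. The fold changes and p-values are the authors' own comparisons and were not used. Counts per library were not analysed here, so the count test laid out for this case gave way to a description of group levels. Labels name 2 RNA library kits without saying which library had which. Groups were taken from the sample titles.

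The deposited mean log2 CPM columns were converted to CPM and the 4 group levels of each experiment solved from 4 means (HUWE1) or, by least squares, 5 means (MIZ1), with Python 3.11.15 and numpy 2.4.6. The solution assumes that a mean weighs both groups alike. The 2 routes to a level in the MIZ1 experiment differed by -0.0124 to 0.00575 log2 for the central 95% of genes. Among kinesin symbols of at least 1 CPM they differed by at most 0.0325 log2. The HUWE1 experiment had 4 means for 4 levels and allowed no such check. The script was tested on simulated data. In the MIZ1 experiment 1 gene gave no positive level and was left out. Depth per library is unknown. Exon lengths and overlaps came from GENCODE on GRCh37, promoters from RefSeq on GRCh38.p14.

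Members, gene lists, fold and floor were chosen with earlier results of these data known. Named with values are all mitotic kinesins, transport and other kinesins of at least 1 CPM, the 2 highest and 2 lowest partners per comparison, CENPE and the targeted genes; KIFAP3, TRAK1, MAPK8IP3, HMMR and ANLN are shown over arms where they were extreme in at least 1 of them. Alternatives covered the fold, the floor, centring, the scale of the mean, the class of KIF2A, the constant in the means and leaving out an arm. ChIP-sequencing was not used here.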

Additional observations from a re-analysis of the deposited data

Results flagged for a closer look

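A value apart from the others was looked for among the 4 arms of each kinesin gene, by Dixon's criterion on the log2 difference of BI8622 and DMSO levels. KIF18A had -0.069 in shHUWE1 cells, against -0.12, -0.13 and -0.13 in the control vector arm and the arms without and with doxycycline. KIF25-AS1 had 2.30 in control vector cells, against 0.93, 1.02 and 0.84 in the other arms, and its DMSO level in control vector cells was 0.377 CPM. Such a criterion singles out some groups by chance, and the arms are different cells and not replicates.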

How the results depend on the processing

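No value past the fold changed sign under the alternatives tried, while 3 values near 0 did. The transport median in shHUWE1 against control vector cells in DMSO (-0.0086) became 0.00022 at floors of 5 and 0.1 CPM. The transport median with against without doxycycline in BI8622 (-0.0080) became 0.020 with means of log2 levels and 0.017 at both floors, and the KIF17 mean (0.00025) became -0.0048 with means of log2 levels. At a lower limit of 0.32 on the log2 scale, mitotic kinesins lower past the limit numbered 8 (control vector arm), 7 (shHUWE1 arm), 8 (shHUWE1 cells in BI8622 against control vector cells in DMSO), 10 (without doxycycline) and 7 (with doxycycline), and transport kinesins higher numbered 4, 4, 4, 3 and 2 in these comparisons, 1 in shHUWE1 against control vector cells in DMSO and 1 with against without doxycycline in DMSO. The share of all genes past 0.32 was not computed, so these counts have no background to be read against. At a fold of 2, all these counts that had been above 0 became 0, so no mitotic kinesin differed by that much. With the means read as means of log2 levels, 0 mitotic kinesins were lower past the fold in the shHUWE1 arm and 1 transport kinesin was higher with doxycycline in DMSO; KIF26A then averaged 1.15 and KIF7 -0.68. Centring on the median of genes of at least 16 CPM left 1 mitotic kinesin in the shHUWE1 arm. A floor of 0.1 CPM, which admits KIF5A, gave 1 transport kinesin higher in shHUWE1 cells in DMSO, 2 in shHUWE1 cells in BI8622 against control vector cells in DMSO and 2 with doxycycline in BI8622 against DMSO. Subtracting the edgeR constant, an alternative chosen after seeing the data, gave 1 transport kinesin higher with doxycycline in DMSO. Leaving out each arm in turn, also chosen after seeing the data, put the mean difference of mitotic and transport medians at -0.56 to -0.47. No paired analysis was possible because the tables hold means over libraries and no column of a single replicate. Depth of the libraries is unknown, so the precision of a level could not be given.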
